A study of Mus musculus with 3 samples.

Results

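T cells of mouse back skin in which no transcript of Trdc, the constant region of the T cell receptor δ chain, was counted made up 114 of the 24884 cells that passed the filters of a droplet single-cell RNA-seq study of the mechanosensitive channel gene Piezo1. A cell was taken as a member if it had at least 500 genes and under 15% mitochondrial counts, Krt5 and Krt14 together at under 0.3% of its counts, no Cd207, counts for at least 2 of Cd3d, Cd3e, Cd3g and Ptprc of which at least 1 was a Cd3 gene, and no Trdc. The same rule with at least 1 Trdc count gave 475 T cells with Trdc, which served as the reference population. The members were chosen by the counts of these 8 genes, whose values are given as a description.

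There was 1 library for each of 3 groups, so no library had a replicate of its own group. All mice were C57BL/6, carried K5-Cre-er and were injected with tamoxifen from P48 to P52. The control was Piezo1fl/+ Tdfl/+ and was taken at P62. The 2-week knockout (Piezo1iKO) was Piezo1fl/fl Tdfl/+, also at P62. The 3-week knockout was Piezo1fl/fl Tdfl/fl at P71, so it was older than the control, had no control of its own age, and differed from it at Td as well as at Piezo1. The keratin 5 promoter drives the recombinase in basal epithelial cells, and T cells are not among the cells it targets. How many mice went into a library is not given in the sources used here.

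As background, most T cells of mouse epidermis are dendritic epidermal T cells, which carry a γδ T cell receptor and are seeded before birth. T cells with an αβ receptor enter the skin later, mostly the dermis and the area around hair follicles, and include CD8 cytotoxic cells, CD4 helper cells and Foxp3-positive regulatory cells. The receptor chains are Trac for α and Trbc1 and Trbc2 for β, while γδ cells use Trdc with a γ constant chain such as Tcrg-C1. Many αβ T cells that stay in skin carry the αE integrin Itgae, the chemokine receptor Cxcr6 and Cd69.

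There were 68 members in the control, 6 in the 2-week knockout and 40 in the 3-week knockout. Their median depth was 5462.5, 3392.5 and 3596 unique molecular identifiers (UMIs, counted transcripts) per cell in that order, against 4556.5, 3319.5 and 3836 in T cells with Trdc. The 6 cells of the 2-week knockout summed to 33225 UMIs, of which 51.0% lay in 1 cell, so that a single UMI there stood for 30.1 CPM (counts scaled to a common total per library). No cell barcode was shared by members of different libraries, although the deposited libraries shared 17 to 29 barcodes pairwise. Scrublet, a doublet caller, marked 123, 301 and 356 cells of the 3 libraries and no member.

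A few members carried many transcripts of another lineage. The keratinocyte list (14 genes such as Krt1 and Krt10, not used by the rule) summed to 8773 CPM in the control, 27178 CPM in the 2-week knockout and 29504 CPM in the 3-week knockout, and 67.6%, 97.9% and 55.3% of those counts lay in 1 cell. The median member held 0.0712%, 0.141% and 0.199% of its UMIs in these genes. Limits chosen after seeing the data (keratinocyte genes at 1% of UMIs or more, or fibroblast, macrophage, Langerhans cell or melanocyte genes at 0.4% or more) marked 8 of 68, 1 of 6 and 3 of 40 members as mixed barcodes. These held 24.2%, 51.0% and 42.3% of the members' UMIs, and in the 3-week knockout the deepest of them had 54610 UMIs against at most 6129 in a member that was kept. In the control 4 members passed the keratinocyte limit, 3 the melanocyte limit, and 1 each the fibroblast and macrophage limits. Among the markers of other immune cells, Cd79a, Cd79b and Ms4a1 of B cells, Cpa3, Mcpt4, Tpsb2, Cma1 and Ms4a2 of mast cells, Ncr1 and Nmur1 of natural killer and innate lymphoid cells, and C1qa, C1qb, C1qc, Adgre1 and Mrc1 of macrophages had no count in the members of any library. Other genes of these 4 lists were counted. The natural killer and innate lymphoid list summed to 383, 331 and 382 CPM in members against 97.2, 140 and 144 CPM in T cells with Trdc. It shares Gata3 and Il1rl1 with the helper T cell list. The macrophage list summed to 590, 391 and 191 CPM against 8307, 1774 and 3859 CPM. The B cell list was also lower in members and the mast cell list was at most 45.4 CPM. The main counts of the gene comparisons below are given with and without the mixed barcodes.

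T cells without Trdc were a smaller part of both knockout libraries than of the control. They made up 1.35% of control cells (exact 95% interval 1.05 to 1.71), 0.0608% of cells in the 2-week knockout (0.0223 to 0.132) and 0.40% in the 3-week knockout (0.286 to 0.545). Relative to the control the share was 0.0449 times as large in the 2-week knockout (0.0159 to 0.103) and 0.296 times in the 3-week knockout (0.195 to 0.443). Of all T cells they were 32.1% in the control (25.8 to 38.8, of 212), 6.12% in the 2-week knockout (2.28 to 12.9, of 98) and 14.3% in the 3-week knockout (10.4 to 19.0, of 279). The intervals of the control did not overlap those of either knockout on either scale. All intervals here and below cover counting error only, and with 1 library per group there is no test of a difference between conditions.

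**Figure D1:**
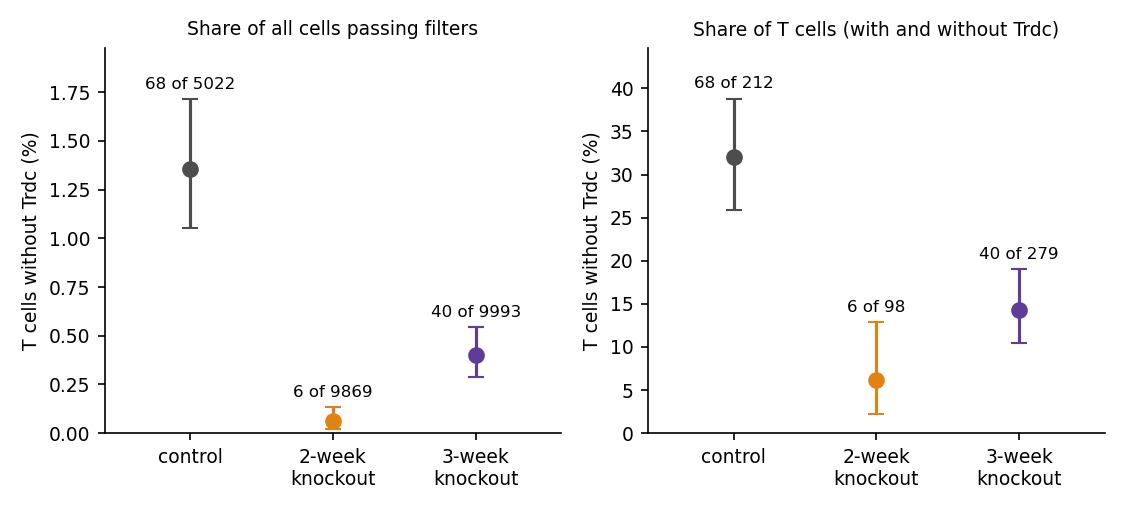
Share of T cells without Trdc among all cells that passed the filters (left, percent) and among T cells with and without Trdc (right, percent) in each library. Points are the share of the library, bars are exact 95% binomial intervals, and the numbers above give the counts; the control lies highest in both panels, at 1.35% and 32.1%.

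The shares of other cell classes also differed from the control, more in the 2-week than in the 3-week knockout. Barcodes with Krt5 and Krt14 at 0.3% of UMIs or more were 54.3% of the control, 75.7% of the 2-week knockout and 59.6% of the 3-week knockout. Barcodes with fibroblast genes were 9.66%, 1.40% and 8.02%, and those with macrophage genes were 1.63%, 0.0304% and 0.620%. T cells with Trdc were 2.87%, 0.932% and 2.39%, and cells with a Ptprc UMI, the pan-leukocyte gene CD45, were 8.20%, 1.78% and 6.42%. Per 100 fibroblast barcodes there were 14.0 members in the control, 4.35 in the 2-week knockout and 4.99 in the 3-week knockout. Per 100 macrophage barcodes there were 82.9, 200 and 64.5, the second of these on 3 macrophage barcodes. Per 100 T cells with Trdc there were 47.2, 6.52 and 16.7. Against each of these classes except the macrophage barcodes, the control had the most members per 100 and the 2-week knockout the fewest. The part of this difference in composition in the members' shares was not tested.

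Few cells lay at the keratin and Trdc limits of the rule. Only 3, 3 and 9 T cells with Trdc had exactly 1 Trdc UMI, against a median of 12, 11 and 12. Members had Krt5 and Krt14 between 0.2% and 0.3% of UMIs in 2, 0 and 0 cells, and 1, 0 and 1 otherwise qualifying cells lay between 0.3% and 0.4%. Another 18, 26 and 58 cells had 1 Cd3 gene and no Ptprc and were not taken. All 4 of Cd3d, Cd3e, Cd3g and Ptprc were counted in 41 of 68, 4 of 6 and 22 of 40 members. Members had fewer Cd3 counts than T cells with Trdc: the median sum of the Cd3 genes was 8.5, 8.5 and 7 UMIs per member against 28, 24 and 33 per T cell with Trdc.

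The receptor chains, apart from Trdc, separated the members from the T cells with Trdc in the control and the 3-week knockout. Trac was counted in 53 of 68 control members (77.9%, 66.2 to 87.1), 2 of 6 in the 2-week knockout and 25 of 40 in the 3-week knockout (62.5%, 45.8 to 77.3). The same gene was counted in 11.1%, 14.1% and 17.2% of T cells with Trdc and in 2.89%, 1.34% and 1.70% of keratinocyte barcodes, which should lack it and had a median depth of 11920 UMIs in the control. After thinning each cell to 1500 UMIs, which left 65, 5 and 40 members, Trac was found in 44.6%, 40% and 35% of members and in 5.67%, 12.2% and 5.08% of T cells with Trdc. Trbc1 was counted in 55.9% of control members and 56.9% of control T cells with Trdc and in 52.5% and 60.7% in the 3-week knockout, so this β chain did not tell the classes apart. Any of the 3 αβ chains was found in 66, 5 and 38 members, but Trbc2 alone was also counted in 15.5%, 11.7% and 22.0% of keratinocyte barcodes and in 56.9%, 51.1% and 75.3% of T cells with Trdc, so this count does not mark αβ cells.

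Counts of another γ or δ chain gene were found in 7 of 68, 3 of 6 and 7 of 40 members, and 3, 2 and 2 of these had no Trac. Trdv4, the variable segment of the dendritic epidermal T cell receptor and part of the same transcript as Trdc, was counted in no control or 3-week member but in 2 of the 6 members of the 2-week knockout, against 94.4%, 92.4% and 90.4% of T cells with Trdc. A Trac UMI with no γ or δ chain was found in 49, 1 and 20 members. Trac was thus counted in most control and 3-week members, while the 6 cells of the 2-week knockout were a mixture in which 2 carried Trdv4.

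Costimulatory and signalling receptors typical of αβ T cells were found in a larger share of control and 3-week members than of T cells with Trdc. Icos, a costimulatory receptor, was counted in 82.4% of control members and 75% of 3-week members against 16.7% and 6.69% of T cells with Trdc. Cd28, the main costimulatory receptor of αβ T cells, was counted in 76.5% and 57.5% against 2.08% and 4.18%. Cd6 and Cd5, scavenger receptor family members that tune receptor signalling, were found in 61.8% and 52.9% of control members and in 1.39% and 2.08% of control T cells with Trdc, and in 45% and 35% against 0.837% and 0.418% in the 3-week knockout. In the 2-week knockout Icos, Cd28 and Cd6 were each counted in 2 of 6 members and Cd5 in 0. Il7r, the receptor for the survival cytokine IL-7, was counted in 66.2% and 65% of members of those libraries against 18.1% and 8.37%. Rora, found in 91.2% of control members, was also counted in 75% of keratinocyte barcodes. The residency receptor Itgae did not separate the classes by share: it was counted in 75% and 65% of members and in 74.3% and 75.7% of T cells with Trdc.

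**Figure D2:**
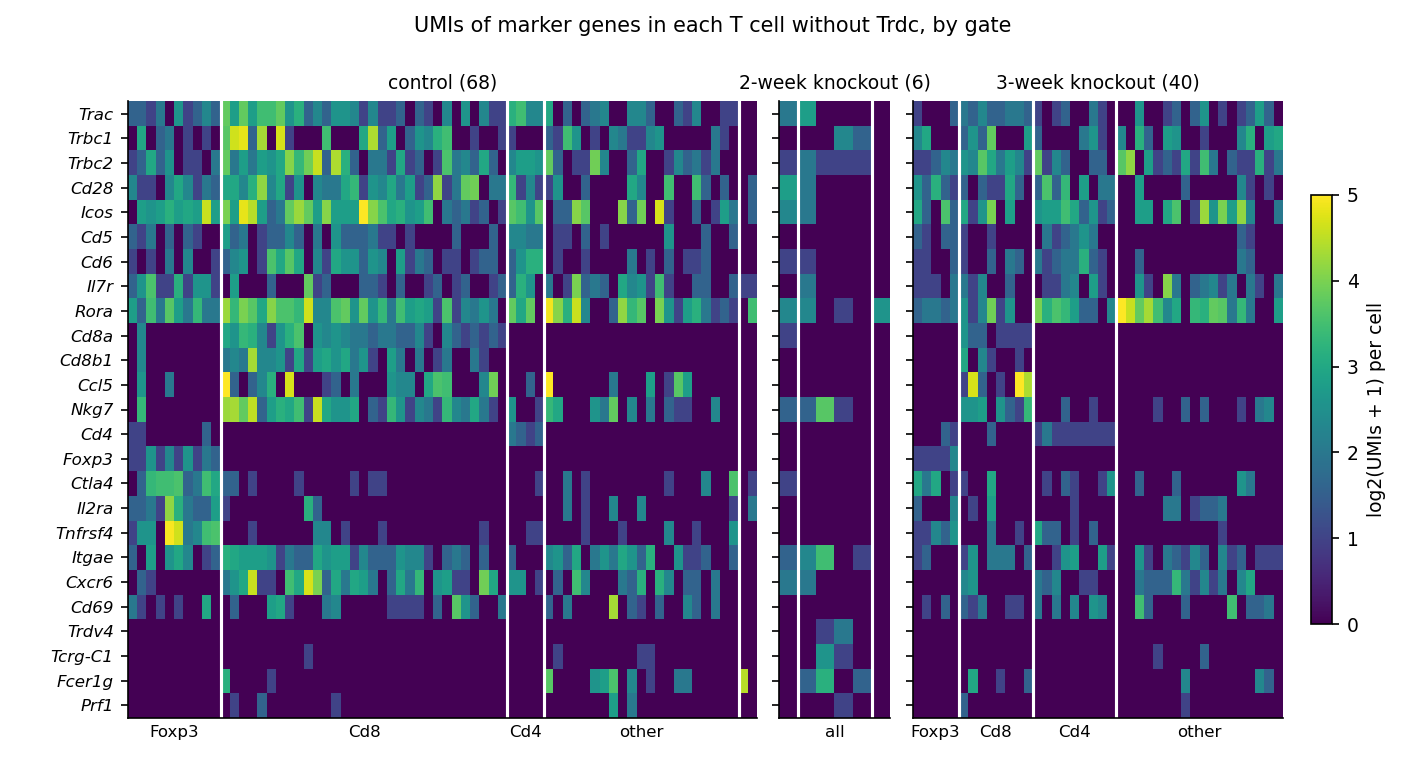
UMIs of marker genes in each of the 114 T cells without Trdc, as log2(UMIs + 1), with 1 column per cell and 1 panel per library. Colours reach their end at 5. White lines separate the Foxp3, Cd8, Cd4 and remaining gates; Cd8a and Cd8b1 fill the Cd8 gate of the control, and Trdv4 appears only in 2 cells of the 2-week knockout.

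Coreceptors and Foxp3 divided the members into gates, each cell counted in the first it met: Foxp3, then Cd8a or Cd8b1, then Cd4, then any αβ chain. The control held 10 Foxp3 cells, 31 Cd8 cells, 4 Cd4 cells and 21 cells of the last gate, with 2 in none of these. The 3-week knockout held 5, 8, 9 and 18, and the 2-week knockout 0, 1, 0 and 4 with 1 in none. In the last of these gates 2, 5 and 1 cells of the control, 3-week and 2-week libraries rested on Trbc2 alone. An αβ chain was also counted in 81.9%, 88.7% and 67.4% of T cells with Trdc of these libraries, so the last gate does not mark αβ cells. The Cd8 gate was 45.6% of control members (33.5 to 58.1) and 20% of 3-week members (9.05 to 35.6). The Cd4 gate was 5.88% (1.63 to 14.4) and 22.5% (10.8 to 38.5). The Foxp3 gate was 14.7% (7.28 to 25.4) and 12.5% (4.19 to 26.8). Thus the 3-week library had the smaller Cd8 share, the larger Cd4 share and a similar Foxp3 share, with intervals that overlapped for each gate. At 1500 UMIs per cell the order of the libraries was the same, with 33.8% against 12.5% for Cd8, 1.54% against 12.5% for Cd4, and 7.69% against 7.5% for Foxp3. With at least 2 UMIs asked of the gating gene the shares in the control and the 3-week knockout were 38.2% and 7.5% for Cd8, 4.41% and 7.5% for Cd4, and 7.35% and 2.5% for Foxp3. At that setting the Cd4 difference was smaller and the Foxp3 share was lower in the 3-week library, on 5 and 1 cells. Keratinocyte barcodes had Cd4, Cd8a, Cd8b1 or Foxp3 in at most 0.15% of cells.

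**Figure D3:**
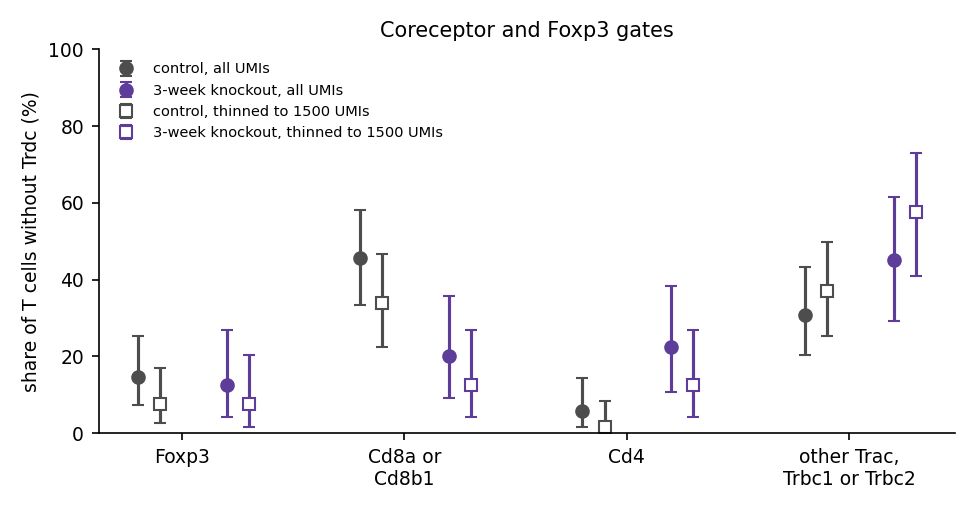
Share of T cells without Trdc (percent) in each gate in the control and the 3-week knockout. Filled circles use all UMIs, open squares cells thinned to 1500 UMIs, and bars are exact 95% binomial intervals; the Cd8 gate is 45.6% in the control and 20% in the 3-week knockout.

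Known genes of each lineage were counted within the gates, and apart from Cd8a and Cd8b1 none of those given here set a gate. Both Cd8a and Cd8b1, the chains of the heterodimer, were counted in 23 control members, 1 of which lay in the Foxp3 gate, and in 3 members of the 3-week knockout. In the Cd8 gate Nkg7, a cytotoxic granule protein, was counted in 29 of 31 control and 7 of 8 3-week cells, and the chemokine Ccl5 in 17 and 6. Effector genes were found in fewer of these cells: the granule protease Gzmb was counted in 11 and 1, interferon-γ (Ifng) in 8 and 2, and its regulator Tbx21 in 13 and 2. Of residency genes, Itgae was counted in 27 and 6, Cxcr6 in 26 and 2, and Cd69 in 15 and 5. Perforin (Prf1) was found in 3 and 1, and Gzmk, a marker of circulating memory cells, in 0 and 0. Nkg7 was also counted outside the Cd8 gate. It was found in 1 of 10 and 0 of 5 cells of the Foxp3 gate and in 2 of 4 and 2 of 9 of the Cd4 gate. In both libraries a larger share of the last gate had Nkg7 than of either of these gates, so it was not particular to the Cd8 gate.

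In the Foxp3 gate the IL-2 receptor chain Il2ra was counted in 10 of 10 control and 2 of 5 3-week cells, the inhibitory receptor Ctla4 in 9 and 4, and the transcription factor Ikzf2 in 9 and 4. The TNF receptor family members Tnfrsf4 and Tnfrsf18 were counted in 9 and 5 and in 9 and 3 cells. The IL-33 receptor Il1rl1 was counted in 9 and 3, the growth factor Areg, associated with tissue repair by regulatory cells, in 7 and 4, and Gzmb in 6 and 4. Most of these cells thus carried several genes of the regulatory lineage, but other genes of the list were counted in few or none. Ccr8 was counted in none, Tigit in 1 and 0, Nrp1 in 2 and 0, Izumo1r in 3 and 0, and Il10 in 0 and 2. Ikzf4 was counted in 6 and 0 and Itgb8 in 4 and 0. Without the mixed barcodes the gate held 7 of 60 control and 5 of 37 3-week members. In the Cd4 gate Icos was counted in 4 of 4 and 9 of 9 cells, Cd28 in 4 and 7, the chemokine receptor Ccr4 in 1 and 4, and the CD40 ligand Cd40lg in 0 and 3. Icos and Cd28 were not particular to this gate: in the Foxp3 gate they were counted in 9 and 4 and in 9 and 5 cells. Il4, Il5, Il13, Il21 and Cxcr5 of the helper list had no count in the Cd4 gate. In the last gate, of cells with an αβ chain count and no coreceptor count, Itgae was found in 16 of 21 and 13 of 18 cells. Cxcr6 was found there in 11 and 12, and Il7r in 15 and 12. The type 17 genes Il17a and Il23r were counted in 1 and 1 control cells and in 4 and 3 cells of the 3-week knockout in that gate. With 4 to 31 cells a gate, these counts cannot tell a gene that is absent from a gate from one below detection at this depth.

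To ask how these cells differed from the other T cells of the same skin, the members' counts were summed per library and compared with the sums of T cells with Trdc in edgeR's quasi-likelihood test with library as a block and Benjamini-Hochberg adjustment, over 5815 genes and 3 libraries. The 3 libraries stood in for replicates although they differed in genotype and age. Of all genes tested, 201 (3.46%) were higher in members and 427 (7.34%) were lower, 628 (10.8%) in all. Without the mixed barcodes, 250 (5.1%) were higher and 558 (11.4%) lower of 4901, and 501 genes were called in both. The same test gave far smaller adjusted p-values in that fit. For Cd28 they were 2.32e-36 at a log2 fold change of 5.05 there and 5.59e-05 at 4.89 in the main fit. A call gained without the mixed barcodes therefore need not mean a larger difference. Cd6, Tnfrsf4, Ccl4, Il6ra and Fbln2 passed the count filter only with the mixed barcodes and were not tested without them.

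The genes that were highest in members relative to T cells with Trdc were immune receptors and a chemokine. Cd28 was 581, 271 and 345 CPM in members of the control, 2-week and 3-week libraries and 8.54, 6.11 and 23.5 CPM in T cells with Trdc, a log2 fold change of 4.89 ± 0.45 (SE; adjusted p = 5.59e-05; higher in 3 of 3 libraries). Cd6 was 331, 60.2 and 175 CPM against 10.7, 0 and 3.24 CPM (5.27 ± 0.46; adjusted p = 5.08e-05; 3 of 3). In each library both genes were higher in members than in T cells with Trdc of any library. Ccl5 had the largest fold change (5.39 ± 0.77; adjusted p = 0.00095), but it was counted in the control and 3-week members only, at 832 and 386 CPM against 1.07 and 25.1 CPM, and 57.6% of its control counts without mixed barcodes lay in 1 cell. Ms4a4b, a membrane protein of T cells, was 515, 211 and 229 CPM against 8.54, 24.4 and 15.4 CPM (4.45 ± 0.48; 3 of 3).

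Tnfrsf4 (OX40, a costimulatory TNF receptor) was 270, 0 and 133 CPM in members against 6.41, 0 and 8.10 CPM (4.65 ± 0.47; higher in 2 of 3 libraries). Ctla4, the inhibitory counterpart of Cd28, was 215, 30.1 and 199 CPM against 20.3, 0 and 5.67 CPM (4.13 ± 0.47; 3 of 3). The other leading genes were Igflr1, Slamf1, the phosphatase Dusp2, the IL-18 receptor chain Il18rap, the acid-sensing receptor Gpr65 and the keratin Krt10, with log2 fold changes of 3.03 to 3.75. Krt10, a keratin of differentiating epidermis, was not called without the mixed barcodes (0.62, adjusted p = 0.264), nor in members with an αβ chain and no γ or δ chain (adjusted p = 0.0711). Il18rap lost its call without the control library (adjusted p = 0.0996).

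Promoters of 9 of these 12 genes were found in the RefSeq table for GRCm38.p6, each covering 250 bases before to 50 bases after the start of the gene. They were searched on both strands for the core letters bound by factors of T cell development: TGTGGT for RUNX, CTTTGA for TCF/LEF and GGAAGT for ETS. The RUNX letters were in 2 of 9 promoters (16.8% of all 32851 promoters), the TCF/LEF letters in 3 of 9 (16% of all) and the ETS letters in 3 of 9 (23.8% of all). None of these counts is a binding measurement. The promoters of Tnfrsf4, Ms4a4b and Ctla4, receptors that were among the largest differences, are shown with the matches in capitals, where ACTTCC is the ETS and TCAAAG the TCF/LEF match on the opposite strand.
Tnfrsf4, chr4:156013445-156013744, plus strand: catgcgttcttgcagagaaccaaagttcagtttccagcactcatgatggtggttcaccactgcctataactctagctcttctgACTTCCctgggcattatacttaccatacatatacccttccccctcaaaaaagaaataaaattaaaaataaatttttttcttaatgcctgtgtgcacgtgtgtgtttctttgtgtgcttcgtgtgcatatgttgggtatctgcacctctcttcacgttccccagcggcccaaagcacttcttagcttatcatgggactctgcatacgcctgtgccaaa
Ms4a4b, chr19:11443308-11443607, plus strand: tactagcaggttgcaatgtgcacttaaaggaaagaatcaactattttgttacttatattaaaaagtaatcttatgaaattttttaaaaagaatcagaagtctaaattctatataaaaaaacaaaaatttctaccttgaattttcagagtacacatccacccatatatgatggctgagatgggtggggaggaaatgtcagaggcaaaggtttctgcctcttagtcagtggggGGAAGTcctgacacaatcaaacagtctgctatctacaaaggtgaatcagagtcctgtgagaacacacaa
Ctla4, chr1:60908775-60909074, plus strand: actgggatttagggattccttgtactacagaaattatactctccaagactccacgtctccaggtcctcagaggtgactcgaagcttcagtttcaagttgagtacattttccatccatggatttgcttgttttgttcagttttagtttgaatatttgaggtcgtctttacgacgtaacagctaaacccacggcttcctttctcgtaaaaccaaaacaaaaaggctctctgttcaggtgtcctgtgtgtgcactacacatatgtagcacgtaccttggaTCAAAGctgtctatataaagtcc

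**Figure D4:**
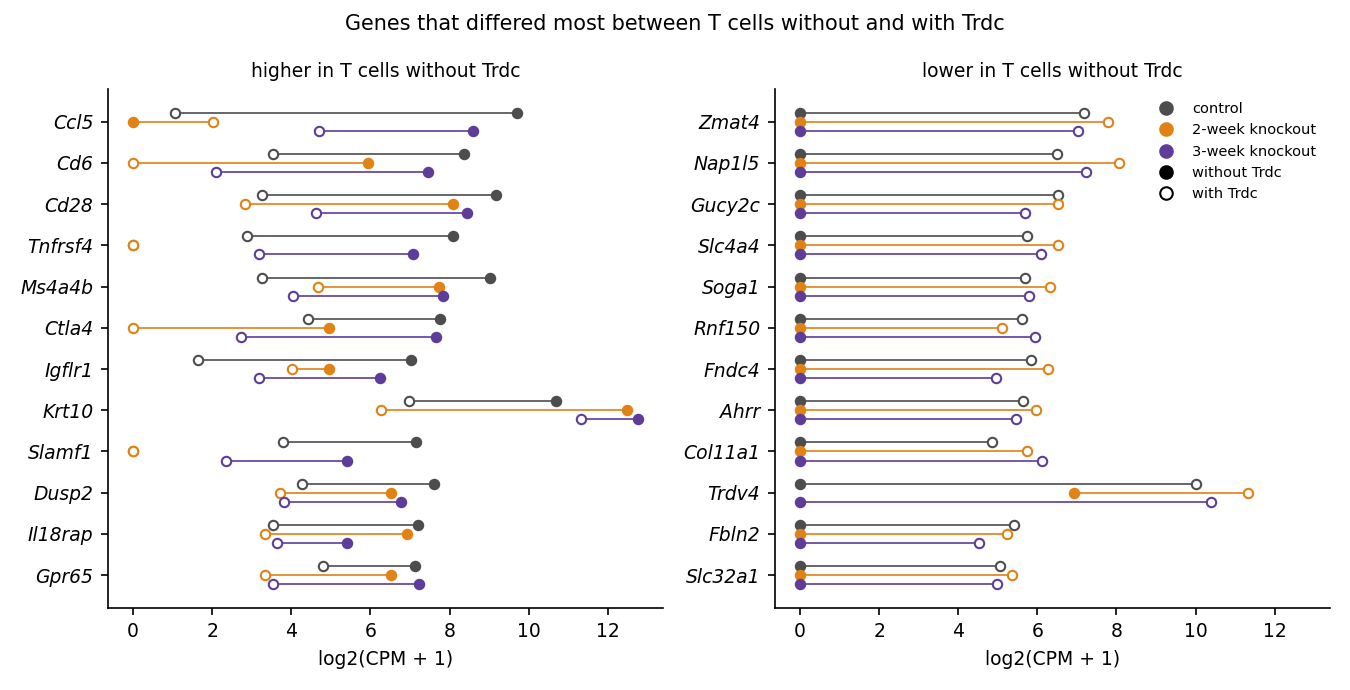
Levels of the 12 genes with the largest fold changes in each direction, as log2(CPM + 1) of counts summed per library, in T cells without Trdc (filled) and with Trdc (open). Lines join the classes of 1 library; Cd28 is higher without Trdc in each of the 3 libraries, and all genes at right except Trdv4 lie at 0 without Trdc.

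Genes of other fixed lists followed the classes. Of 9 tested helper T cell genes 6 were higher and 0 lower (Cd28, Icos, Gata3, Tnfrsf4, Rora and Cd40lg), with a list median of 1.86 against -0.00080 over all genes tested. Icos was 1111, 211 and 827 CPM against 187, 70.2 and 56.7 CPM (2.86 ± 0.40; adjusted p = 0.000797; 3 of 3). Of 6 naive or recirculating T cell genes 4 were higher (Ccr7, Il7r, Satb1 and Dapl1), and Dapl1 was not called without the mixed barcodes. Of 12 regulatory T cell genes 5 were higher (Ctla4, Icos, Ikzf2, Gata3 and Tnfrsf4) and 1 lower (Rgs1). Receptors for cytokines and chemokines were higher for 6 of 19 (Il18r1, Cxcr4, Il6ra, Il21r, Ccr7 and Il7r) and lower for 2 (Il10ra and Il2rb). Without the mixed barcodes the helper list had 6 of 6 tested genes higher, the regulatory list 5 of 10 higher and 2 lower, and the receptor list 7 of 14 higher and 2 lower.

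Trac was 494, 271 and 245 CPM in members against 43.8, 58.0 and 48.6 CPM (2.77 ± 0.35; adjusted p = 0.000363; 3 of 3). Trbc1 and Trbc2 differed by 0.53 and 0.94 and were not called (adjusted p = 0.383 and 0.108). All 3 αβ chains were called higher in edgeR's test without the mixed barcodes, where adjusted p-values ran smaller. Trbc1 and Trbc2 differed there by 0.82 and 1.12 (adjusted p = 0.0418 and 0.00225). The residency receptors Itgae (0.30, adjusted p = 0.609), Cxcr6 (0.53, adjusted p = 0.412) and Cd69 (0.50, adjusted p = 0.601) were not called, and Cxcr6 was called higher without the mixed barcodes. Of 12 residency genes 1 was higher (Bhlhe40) and 4 lower (Rgs1, Rgs2, Runx3 and Crem).

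Cytotoxic genes were called in both directions. Of 9 cytotoxic genes 3 were higher in members (Ccl5, Ccl4 and Gzmb) and 3 lower (Xcl1, Nkg7 and Prf1), and without the mixed barcodes 2 of 8 (Ccl5 and Gzmb) and the same 3. Prf1, the pore-forming perforin, was 29.5, 30.1 and 12.5 CPM in members against 231, 278 and 305 CPM in T cells with Trdc (-3.51 ± 0.42; adjusted p = 0.000260; lower in 3 of 3). Gzmb was 170, 120 and 29.1 CPM against 47.0, 85.5 and 7.29 CPM (1.56 ± 0.39; adjusted p = 0.0220; 3 of 3).

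Genes of dendritic epidermal T cells were among those lower in members. Of 12 tested genes of that list 7 were lower and 0 higher: Fcer1g, Cd7, Cd244a, Xcl1, Nkg7, Il2rb and Ctsw. Fcer1g, a signalling adaptor of innate-like receptors, was 170, 361 and 83.1 CPM in members against 1328, 1704 and 1512 CPM (-3.17 ± 0.34; adjusted p = 0.000162; 3 of 3). Cd7 was 209, 361 and 112 CPM against 1001, 1844 and 1494 CPM (-2.78 ± 0.32; adjusted p = 0.000222; 3 of 3). Cd247, the ζ chain of the receptor complex, was 40.8, 181 and 49.9 CPM against 262, 452 and 397 CPM (-2.49 ± 0.36; adjusted p = 0.000977; 3 of 3). The checkpoint receptors Lag3 (-3.76) and Havcr2 (-1.58) were lower, while Ctla4 of the same list was higher. Lists of other cell types also differed: keratinocyte genes were higher in members for 7 of 14 and lower for 1, fibroblast genes lower for 3 of 4 and macrophage genes (Fcer1g among them) lower for 5 of 6, with list medians of 1.34, -5.61 and -4.31. Without the mixed barcodes, of which the T cells with Trdc held 23, 1 and 21, these became 0 higher and 1 lower of 10, 1 lower of 1 and 1 lower of 2. The dendritic epidermal T cell genes were lower for 6 of 11 and higher for 1 (Krt83) without them.

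Of the genes lower in members, 17 had no count in any of the 3 libraries' members, where 3 UMIs over their 714745 would be 4.20 CPM. Such genes passed the count filter only through the T cells with Trdc, so they had to differ. Zmat4 was 144, 220 and 130 CPM in T cells with Trdc and at least 35.1-fold lower in members. Nap1l5 was 89.7, 269 and 148 CPM and at least 33.8-fold lower, and Gucy2c, an intestinal guanylate cyclase receptor, was 90.7, 91.6 and 50.2 CPM and at least 16.9-fold lower. Slc4a4, Soga1, Rnf150, Col11a1, Ahrr and Fndc4 were at least 11.0-fold to 15.4-fold lower, Slc32a1 at least 7.72-fold and Fbln2 at least 7.44-fold. Without the control library the calls of Fndc4, Fbln2 and Slc32a1 were lost. Trdv4, part of the Trdc transcript, was 0, 120 and 0 CPM against 1035, 2562 and 1344 CPM and is a description of the rule.

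Piezo1, the floxed gene, was low in members: 27.2 CPM in the control (12 UMIs in 9 cells), 30.1 CPM in the 2-week knockout (1 UMI) and 12.5 CPM in the 3-week knockout (3 UMIs in 3 cells). It was not called different from T cells with Trdc (-0.01, adjusted p = 0.997), on few counts. None of 4 tested mechanosensitive channel genes was called.

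Between the 3-week knockout and the control, the comparison is of 1 library with another, so fold differences of CPM are given with no test. Over all members, 3288 genes were abundant enough to rank (at least 30 UMIs over both libraries, a UMI in 5% of the members of the higher library, and a level of at least that of the other barcodes divided by 3). In the 3-week knockout 185 of them (5.63%) had at least 2 times the control level, and 216 (6.57%) were lower by that factor or more. The 12 largest on the higher side were led by Wfdc21, Lor, Crct1 and Flg2 of cornifying epidermis, with 46.6% to 95.3% of each gene's counts in 1 cell, and the lower side by Dct, a melanocyte enzyme, and Krt6a. Without the mixed barcodes, 37 and 60 cells were left, 2329 genes could be ranked, and 44 (1.89%) were higher and 120 (5.15%) lower, with a median log2 ratio of -0.16 (20 CPM added to both sides). The values that follow are without the mixed barcodes.

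The genes with the largest ratios to the control were Klf2, Rgcc and Avpi1. Klf2, a transcription factor of quiescent and recirculating T cells, was 410 CPM in the 3-week knockout (10 of 37 cells) and 53.8 CPM in the control (8 of 60), a ratio of 7.62 (4.42 to 13.8). One cell held 42.1% of its 3-week counts. In T cells with Trdc the log2 ratio of Klf2 was -0.04, and in the other barcodes 0.70. Rgcc, a regulator of the cell cycle, was 986 CPM (26 cells) and 182 CPM (27 cells), a ratio of 5.40 (3.97 to 7.43), and had a log2 ratio of 1.17 in T cells with Trdc as well. Avpi1 was 295 CPM (15 cells) and 47.9 CPM (6 cells), a ratio of 6.17 (3.39 to 11.8). Rrad, Ramp1, Gpx1, Pim3, Pxdc1, Pmaip1, Camk2n1 and Hk2 were also among the 12, and Tnfsf8, the CD30 ligand, had 46.3% of its 3-week counts in 1 cell.

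The genes with the lowest ratios were largely those of dividing cells. Stmn1, Mki67, Pclaf, Hist1h1b and Serpinb9 had at most 3 UMIs in the 3-week knockout. They reached the 30 UMIs needed for ranking through the control alone. Genes ranked in this way had to come out lower, so their direction is given as a description. Stmn1, a microtubule regulator of proliferating cells, was 21.6 CPM (3 UMIs) in the 3-week knockout and 311 CPM (104 UMIs in 10 cells) in the control, a ratio of 0.0694 (0.0141 to 0.209). Mki67 was 14.4 CPM (2 UMIs) and 141 CPM (9 cells), a ratio of 0.102 (0.0120 to 0.391). Pclaf, a partner of the replication clamp, had no count in 37 cells and 147 CPM in 6 of 60 control cells, and was at least 6.79-fold lower against a floor of 3 UMIs, or 21.6 CPM. The histone gene Hist1h1b had 1 UMI against 132, of which 68.2% lay in 1 control cell. Counted per cell, 5 of 60 control members (8.33%, 2.76 to 18.4) and 1 of 37 3-week members (2.70%, 0.0684 to 14.2) had at least 3 of 10 cell cycle genes. These intervals overlapped. Of the 5 control cells 3 lay in the Cd8 gate, 1 in the Cd4 gate and 1 had no coreceptor. Serpinb9, an inhibitor of granzyme B, was 21.6 CPM (3 cells) and 144 CPM (20 cells), and Gpr55 was 36.0 CPM (4 cells) and 173 CPM (26 cells). Wdr89 was 86.4 and 814 CPM, a log2 ratio of -2.97, with -2.92 in T cells with Trdc and -2.82 in the other barcodes, so it was lower in each of these 3 groups.

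The lists describe the comparison further, where higher and lower mean at least 1.5-fold, as for 165 (7.08%) and 444 (19.1%) of all ranked genes. Of 12 ranked cytotoxic genes 2 were higher and 6 lower, with a median log2 ratio of -0.57 against -0.16 over all genes and 0.16 for the same genes in T cells with Trdc. Cd8a was 93.6 CPM in the 3-week knockout and 341 CPM in the control (ratio 0.274, 0.142 to 0.488), and Cd8b1 was 93.6 and 326 CPM. Nkg7 was 345 and 787 CPM (0.439, 0.316 to 0.599), and Gzmb 50.4 and 194 CPM (0.259, 0.10 to 0.565). Cd8a and Cd8b1 set the Cd8 gate, so their lower levels restate its smaller share. The part of the smaller Cd8 gate in the levels of Nkg7 and Gzmb was not tested. The chemokine Xcl1 of the same list was 619 and 218 CPM (2.83, 2.05 to 3.93).

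Immediate early genes were higher for 6 and lower for 0 of 10, with a median of 0.75, against 0.24 in T cells with Trdc and 0.49 in the other barcodes. Junb, an AP-1 subunit, was 3937 and 1762 CPM (2.23, 1.99 to 2.51), Jund 1807 and 888 CPM, and Fosb 979 and 509 CPM. Genes that respond to receptor stimulation were higher for 5 and lower for 0 of 10 (median 0.48), against 0.09 in T cells with Trdc and -0.04 in the other barcodes. Nfkbia, the inhibitor of NF-κB, was 1317 and 503 CPM (2.62, 2.11 to 3.25), and the orphan receptor Nr4a1 was 504 and 218 CPM (2.31, 1.64 to 3.25). In the other barcodes Nfkbia and Nr4a1 had log2 ratios of 0.51 and 0.42, so higher levels of these genes and of the immediate early genes were not limited to the members.

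Among naive or recirculating genes 3 of 6 were higher (Klf2, Tcf7 and Ccr7) and 1 lower (Ly6c2), with a median of 0.57. Tcf7 was 130 and 56.8 CPM (2.28, 1.13 to 4.59), in 12 of 37 and 14 of 60 cells. Secreted factors were higher for 6 of 9 (Tgfb1, Ltb, Ccl4, Xcl1, Tnfsf8 and Tnfsf11) and lower for 2 (Areg and Ifng). Maf, a transcription factor of helper and type 17 T cells, was 432 and 147 CPM (2.95, 1.99 to 4.39), in 16 and 20 cells. Of 12 residency genes 3 were higher (Bhlhe40, Ahr and Cd69) and 2 lower, among them Cxcr6 at 425 and 700 CPM (0.607, 0.448 to 0.810), while Itgae at 482 and 529 CPM, Rgs1 at 1461 and 1409 CPM and Cd44 at 734 and 670 CPM lay between the limits. Of 11 regulatory T cell genes 1 was higher (Ctla4, 345 and 215 CPM) and 2 lower, Tnfrsf9 at 108 and 338 CPM (0.319, 0.173 to 0.549) and Areg at 245 and 431 CPM.

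Receptor chain levels depended on the mixed barcodes. Without them none of the 3 αβ chains passed 1.5-fold: Trac was 425 and 601 CPM, Trbc1 698 and 676 CPM, and Trbc2 885 and 778 CPM. Of 20 genes of the receptor complex and its signalling 1 was higher (Skap1) and 3 were lower (Fyb, Themis and Sh2d2a), with a median of -0.22. Over all members, mixed barcodes included, 12 of 21 of these genes were lower (median -0.60) and Trac passed the limit as well, where 10.8% of all ranked genes were higher and 21.1% lower. Helper genes were higher for 2 (Cd40lg and Tnfsf8) and lower for 1 (Tbx21) of 10. Interferon response genes were lower for 3 of 7 (Isg15, Ifi27l2a and Gbp2), with medians of -0.45 in members, -0.39 in T cells with Trdc and -0.68 in the other barcodes. Ifi27l2a was 230 and 751 CPM in members, a log2 ratio of -1.62, and -1.92 in the other barcodes. Sterol and lipid genes were higher for 7 of 8 over all members but for 1 of 4 (Insig1) without the mixed barcodes.

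**Figure D5:**
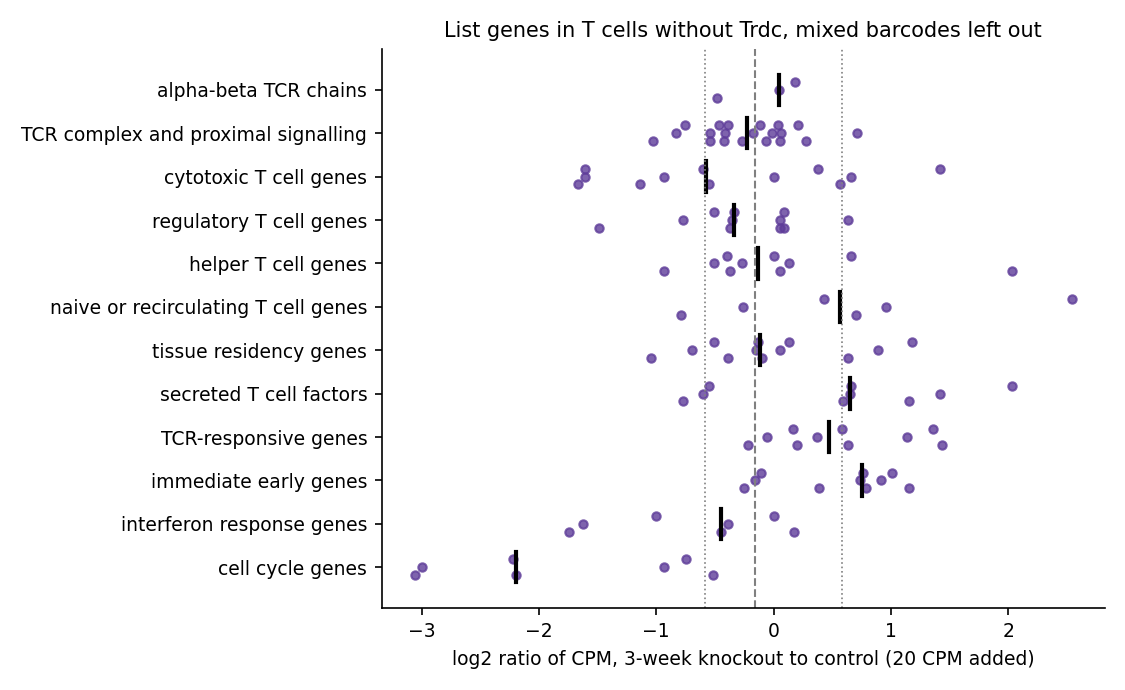
Log2 ratio of CPM between the 3-week knockout and the control (20 CPM added to both) for ranked genes of 12 lists in T cells without Trdc, mixed barcodes left out. Each point is a gene, black bars are list medians, the dashed line is the median of all ranked genes (-0.16) and dotted lines are 1.5-fold. Cell cycle genes lie lowest, with a median of -2.20, and immediate early genes highest, with a median of 0.75. Of the cell cycle genes, Mki67, Top2a, Pclaf and Stmn1 could be ranked only through their control counts.

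The 2-week knockout allowed few statements on single genes. Against the control, 152 of 2431 genes that could be ranked (6.25%) were higher by a factor of 2 or more and 691 (28.4%) were lower by as much, and 11 of the 12 with the largest ratios, such as Sprr1b and Serpinb2 of epidermis, were counted in 1 cell only. Without the mixed barcode 168 were higher and 498 lower. Ccl5 had no UMI in the 6 cells against 367 UMIs in 26 of 68 control cells, and Tnfrsf4 had no UMI against 119. Itgae was counted in 4 of 6 cells, Trbc2 in 5, Rora in 4, Icos and Cd28 in 2 each, and Foxp3 and Cd4 in none, where the exact interval of 0 of 6 reaches 45.9%. At 1.5-fold, 13.1% of all ranked genes were higher and 43.4% lower, mixed barcode included, and that barcode held no αβ chain count.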

How the data were processed

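Mouse back skin was dissociated with collagenase I and then trypsin and profiled with the 10x 3' v3.1 kit, per the labels' protocols. The deposited matrices hold raw counts of UMIs per gene and barcode, made by the authors with Cell Ranger 6.1.2 on mm10, per the submitters' processing notes; which annotation release was used and whether introns were counted is not stated in these sources. They held 5621, 11144 and 11186 barcodes and 32285 genes.

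Members were taken by thresholds on counts, with no clustering. Counts were summed per library and scaled to CPM (Python 3.11.15, scanpy 1.11.5 for Scrublet, scipy 1.17.1). Shares have exact Clopper-Pearson intervals, and ratios of summed counts exact conditional intervals. edgeR 4.0.16 (R 4.3.3, TMM, genes with at least 10 counts in 3 of 6 sums, FDR 0.05) compared members with T cells with Trdc, with library as a block. The SE given with a log2 fold change is its absolute value divided by the square root of the test's F statistic. The rule's own genes were not tested. DESeq2 1.42.0, thinning, other filters and other member rules were alternatives. Named genes were the 12 largest ratios or fold changes per side, leaving out ribosomal, mitochondrial, haemoglobin and sex-linked genes and unnamed gene models, plus genes of 34 lists. The members, the lists and the tests were chosen with earlier results of these data known. The comparison of the Foxp3 gate with other members was not run, because it asked for 10 cells per library.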

Additional observations from a re-analysis of the deposited data

How the results depend on the processing

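Across the alternatives, 107 of 130 comparison results stayed within their limits and 23 moved. Of the 48 shares of members recomputed, 48 stayed within their limits. The alternative without mixed barcodes was added after seeing the data, as was the one with an αβ chain and no γ or δ chain.

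For the 2-week knockout the 152 genes at least 2-fold higher became 91 with TMM factors, 233 with the mean of per-cell CPM and 404 with a minimum of 10 UMIs, and the 691 lower became 1934 with that minimum, which tests more genes. For the 3-week knockout the 185 higher became 87 with per-cell means, 382 with 10 UMIs and 44 without mixed barcodes, and the 216 lower became 340 with an offset of 5 CPM, 369 with 10 UMIs and 120 without mixed barcodes. Without mixed barcodes Psapl1 reversed to -0.20 and Krt16 to 0.61 on the log2 scale. With 2 UMIs of the gating gene the 3-week gates were 2.5% (Foxp3), 7.5% (Cd8) and 7.5% (Cd4), and the control Cd4 gate was 1.54% when thinned.

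Against T cells with Trdc, the 201 higher genes became 117 with DESeq2, and the 427 lower became 699 with no filter and 277 when thinned, which left 2375 genes. Leaving out 1 library gave 64 to 342 higher and 178 to 594 lower genes: without the control 129 and 203, without the 2-week knockout 342 and 594, and without the 3-week knockout 64 and 178. The libraries are the pairs of this test, since both sums come from 1 library; with no replicate block 87 were higher and 328 lower, and 409 of the 628 genes were called in both. Of single fold changes that an alternative could test, 204 of 211 kept their call. This number includes the named lower genes with no count in members, which had to differ, and Trdv4, which describes the rule. It is therefore no measure of how stable the calls of other genes were. Genes with too few counts for an alternative, such as Cd28 and Cd6 when thinned, are not in this count. Beyond the number of genes or libraries, the cause was not tested.

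With 6 members in the 2-week knockout and 1 library per group, depth limited single genes: 3 UMIs were 6.80, 90.3 and 12.5 CPM in members of the control, 2-week and 3-week libraries.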

Other observations

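Members with a count of Il17a or Il17f, cytokines of type 17 T cells, were 3 of 68 in the control, 0 of 6 in the 2-week knockout and 4 of 40 in the 3-week knockout, against 14 of 144, 2 of 92 and 10 of 239 T cells with Trdc. The type 2 cytokine genes Il5 or Il13 were counted in 1, 1 and 2 members and in 6, 7 and 21 T cells with Trdc. At least 3 of 10 cell cycle genes were counted in 4 of 144, 1 of 92 and 3 of 239 T cells with Trdc, against 5 of 68, 0 of 6 and 1 of 40 members. In edgeR's quasi-likelihood test 1 of 6 tested cell cycle genes (Hmgb2) was higher in members than in T cells with Trdc, and 3 of 6 (Stmn1, Mki67 and Hmgb2) without the mixed barcodes, where 5.1% of all genes were called higher.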
